A study of Mus musculus with 4 samples.

Results

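The BCL2 family decides whether a cell permeabilises its mitochondria and dies by apoptosis, and 9 of its genes were described here: Bcl2, Bcl2l1, Mcl1 and Bcl2a1b, which protect cells, Bax and Bak1, which open the outer mitochondrial membrane, and Bcl2l11, Bid and Bad, which carry only the BH3 domain and trigger death. They were chosen by name, and all 9 were present among the 17746 gene symbols of the deposited table. Sequencing was done on the RNA of cells sorted from lung tumours of Rb1fl/fl; Trp53fl/fl mice, which model human small cell lung cancer and also carried the knocked-in autophagy reporter GFP-LC3-RFP-LC3ΔG. Live cells positive for EpCAM, an epithelial surface protein, and for RFP were divided into GFP-negative cells (2 libraries) and GFP-positive cells (2 libraries). All 4 libraries share the Rb1 and Trp53 alleles, the reporter and the EpCAM and RFP gates. The sources used here give neither the number, age or sex of the animals nor the way the floxed alleles were recombined. No label ties the 2 libraries of a group to different animals, so the p-values measure only the spread between these libraries, which may be technical. The sample titles and the design text give high autophagic flux to opposite groups. The groups are therefore named by GFP, and a change is the GFP-negative level less the GFP-positive one.

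As background, BAX and BAK lie inactive in healthy cells until BH3-only proteins such as BIM (Bcl2l11) and BID engage them, while BCL-2, BCL-XL (Bcl2l1), MCL-1 and A1 (Bcl2a1b) bind both kinds and hold them in check. MCL-1 is a short-lived protein that many cells need for survival. A1 is known chiefly from blood cells, and in small cell lung cancer BCL-2 and BCL-XL are known as drug targets. Protein level and activity in this family are set by turnover, cleavage and phosphorylation as well as by transcription, and none of these was measured here.

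The mouse genome holds several near-identical copies of the A1 gene, and their sequence bears on every value of Bcl2a1b given here. The first 120 coding bases of the copies in the table are shown because most of the coding differences lie in them. Each is printed from its start codon, with capitals at the 7 positions where the copies differ, from GENCODE M21 transcripts on mm10.
Bcl2a1b (chr9:89199360-89199479, plus strand): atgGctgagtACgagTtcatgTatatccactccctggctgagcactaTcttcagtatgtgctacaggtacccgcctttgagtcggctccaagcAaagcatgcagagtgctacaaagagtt
Bcl2a1d (chr9:88731600-88731719, minus strand): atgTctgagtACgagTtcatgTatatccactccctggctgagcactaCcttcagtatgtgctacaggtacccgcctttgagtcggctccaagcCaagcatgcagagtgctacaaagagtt
Bcl2a1a (chr9:88957051-88957170, plus strand): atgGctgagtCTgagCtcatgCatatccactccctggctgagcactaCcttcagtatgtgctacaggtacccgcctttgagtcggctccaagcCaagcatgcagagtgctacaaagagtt
Over all 516 coding bases, Bcl2a1b differed from Bcl2a1d at 6 positions (98.8% identity) and from Bcl2a1a at 11 (97.9% identity), and Bcl2a1a differed from Bcl2a1d at 7. The longest stretch that Bcl2a1b shares unbroken with either copy is 217 coding bases. Of the 718 windows of 100 bases in the Bcl2a1b transcript, 223 (31.1%) also occur in Bcl2a1a or Bcl2a1d. How the authors' counting treated reads shared between genes is not given in the sources used here, so the split of reads among the 3 copies is uncertain.

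Levels below are CPM, counts scaled to a common library size with TMM factors, with replicate 1 of a group before its replicate 2. Libraries held 51994432 to 73997175 counts, so error from read depth alone is small beside the spread between libraries for all but the rarest members. The cDNA was amplified from very little RNA, and read totals do not show the error of that step. GFP-positive replicate 1 stood apart: 6063 genes had counts there, against 15710 to 17617 in the other 3 libraries, and 64.4% of the genes tested were at 0 in it. Of the 9 members, 4 (Bcl2l1, Bak1, Bcl2l11 and Bad) were at 0 in that library. Epcam, the gene of the sorted surface protein, had 255 and 88.9 CPM in GFP-negative and 94.0 and 65.9 CPM in GFP-positive libraries. The neuroendocrine tumour markers were all in the table (9 of 9), with summed levels of 4572 and 1385 CPM in GFP-negative and 3299 and 1137 CPM in GFP-positive libraries. In GFP-positive replicate 1, Chga and Chgb, the granin genes of neuroendocrine granules, were at 0.

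Across the family, Mcl1 and Bcl2a1b were the 2 members whose GFP-negative libraries both lay below both GFP-positive libraries, and none lay above. No member passed edgeR's quasi-likelihood test: 0 of 9 had a Benjamini-Hochberg adjusted p under 0.05, against 0.0982% of the 16301 genes tested (0.092% lower and 0.00613% higher). An unadjusted p under 0.05 was found for 0 of 9 members and 3.1% of all genes. DESeq2's Wald test called 0 of 9 members, of which Bak1 got no adjusted p, and 0.279% of the 15036 genes with an adjusted p. The limma-voom test called 0 of 9 members and 0.0245% of the 16301 genes. Of all genes tested, 31.8% had groups that did not overlap, 6.63% lower and 25.2% higher. Among genes with counts in all 4 libraries, 18.4% were lower and 13.2% higher without overlap, and 2 of the 5 members of that kind were lower. The median fitted log2 change was -0.06 over the 9 members and 0.91 over all genes tested, and 5 of 9 members and 31.9% of all genes had a change below 0. The median of all genes was 0.29 without GFP-positive replicate 1, and -0.06 in a separate fit of genes with counts in all 4 libraries, a choice of genes that depends on the change itself.

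**Figure D1:**
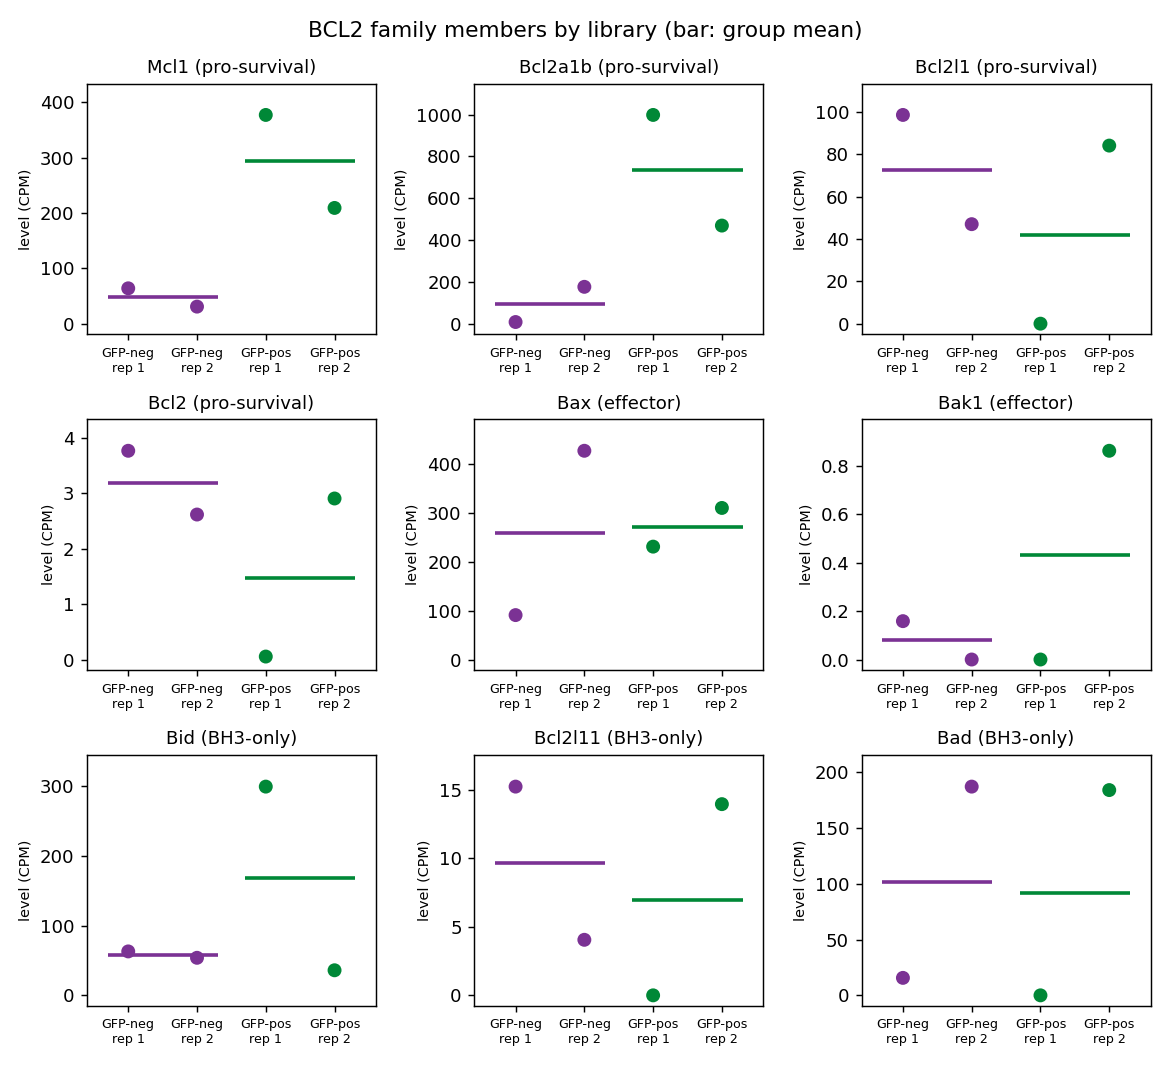
Level in CPM (linear axis from 0) of each of the 9 members in the 2 GFP-negative libraries (purple) and the 2 GFP-positive libraries (green), one panel per gene, with a bar at each group mean. Mcl1 and Bcl2a1b are the 2 panels in which the groups do not overlap, and Bcl2l1, Bak1, Bcl2l11 and Bad sit at 0 in GFP-positive replicate 1.

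Among the pro-survival genes, Mcl1 had 63.9 and 30.8 CPM in GFP-negative libraries, against 377 and 209 CPM in GFP-positive libraries. Both GFP-negative libraries were low, and the groups did not overlap. The group means were 47.4 ± 23.4 CPM in GFP-negative and 293 ± 119 CPM in GFP-positive libraries (SD, n = 2 each), and the log2 change was -2.63 ± 2.28 (SE, edgeR adjusted p = 1.0). The fitted change was between -3.25 and -2.13 when each library was left out in turn, and -9.00 under upper quartile scaling. Its gene lies on chromosome 3 (mm10) from 95658788 to 95663176, and GENCODE M21 annotates no other gene over it.

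Bcl2a1b, the A1 copy with the most counts, had 7.93 and 176 CPM in GFP-negative libraries, against 998 and 469 CPM in GFP-positive libraries. The groups did not overlap, but the 2 GFP-negative libraries differed from each other 22.2-fold, more than the GFP-positive pair did (2.13-fold). The log2 change was -2.99 ± 1.73 (SE, n = 2 per group, edgeR adjusted p = 1.0, unadjusted p = 0.083), and it was -6.46 without GFP-negative replicate 2, -2.06 without GFP-negative replicate 1 and -9.27 under upper quartile scaling. Bcl2a1d had 3.14 and 66.5 CPM in GFP-negative and 318 and 120 CPM in GFP-positive libraries. Bcl2a1a had 2.03 and 66.7 CPM in GFP-negative and 246 and 112 CPM in GFP-positive libraries. Bcl2a1b took 60.6% and 56.9% of the counts of the 3 copies in GFP-negative and 63.9% and 66.9% in GFP-positive libraries. By the counts as deposited it was the highest copy in all 4 libraries, but the split of shared reads is uncertain. With the 3 copies added up, a sum chosen after seeing the data that does not depend on the split among them, the levels were 13.1 and 309 CPM in GFP-negative and 1563 and 701 CPM in GFP-positive libraries, and the log2 change was -2.81 ± 1.46 (SE, edgeR adjusted p = 1.0). Bcl2a1b lies on chromosome 9 (mm10) from 89199209 to 89207827. A second annotated gene on its strand, Gm29094, shares 401 exon bases with it and had 97 and 87 counts in GFP-negative and 0 and 344 counts in GFP-positive libraries, while Bcl2a1b had 900 and 11731 counts in GFP-negative and 37449 and 29905 counts in GFP-positive libraries.

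The level of Bcl2a1b followed the summed level of macrophage markers and that of Lyz2, but not every marker of the list. Of 15 macrophage and myeloid markers, 14 were in the table: all 14 had a fitted change below 0, 11 had groups that were lower without overlap, and 2 (Lyz2 and Chil3) were called lower by edgeR. Over all genes tested, 31.9% had a change below 0, 6.63% were lower without overlap and 0.092% were called lower. The markers summed to 977 and 17480 CPM in GFP-negative and 104800 and 53460 CPM in GFP-positive libraries. In every library, by a share computed after the values had been seen, Bcl2a1b stood at close to the same share of that sum, 0.811% and 1.01% in GFP-negative and 0.952% and 0.878% in GFP-positive libraries. Bcl2a1b itself spanned 126-fold between the lowest and the highest library, and its share of the marker sum 1.24-fold. Lyz2, the lysozyme of myeloid cells, had the pattern nearest to that of Bcl2a1b, with 480 and 8635 CPM in GFP-negative and 43150 and 19820 CPM in GFP-positive libraries. Lyz2 and Chil3 made up 68.2% and 56.3% of the sum in GFP-negative and 82.1% and 49.3% in GFP-positive libraries, so the sum is largely theirs. Of the 14 markers, 6 (Adgre1, Cd68, Lyz2, Chil3, Cd14 and Mertk) put the 4 libraries in the same order as Bcl2a1b. So did the erythroid markers Hbb-bs, Hbb-bt, Hba-a1 and Hba-a2, but not Alas2, so the order is not particular to macrophage markers. The share of all genes with this order was not counted. The complement genes C1qa, C1qb and C1qc were highest in GFP-positive replicate 2, and Csf1r and Itgam were lowest in GFP-negative replicate 2. Mcl1 was no such constant share: it came to 6.53% and 0.176% of the marker sum in GFP-negative and 0.36% and 0.391% in GFP-positive libraries, a 37.1-fold span. Of the macrophage markers, Fcgr1 and Itgax were at 0 and Mrc1 was at 0.107 CPM in GFP-positive replicate 1. Also at 0 there was Ptprc, the CD45 gene of blood cells, which had 22 and 18.4 CPM in GFP-negative and 0 and 79.9 CPM in GFP-positive libraries. The neutrophil markers, 5 of 7 in the table, summed to 33.1 and 31.6 CPM in GFP-negative and 194 and 153 CPM in GFP-positive libraries, and 4 of the 5 were at 0 in GFP-positive replicate 1. All 6 T and NK cell markers and all 6 B and plasma cell markers in the table were at 0 there too. Erythroid markers, 5 of 5 in the table and all 5 lower without overlap, of which edgeR called Hbb-bs and Hba-a1 lower (adjusted p = 0.0031 and 0.0041), summed to 1572 and 5389 CPM in GFP-negative and 45370 and 14330 CPM in GFP-positive libraries. In bulk samples, fewer cells of a type and less RNA per cell cannot be told apart, and the part of myeloid or erythroid RNA in the values of Bcl2a1b and Mcl1 was not tested.

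**Figure D2:**
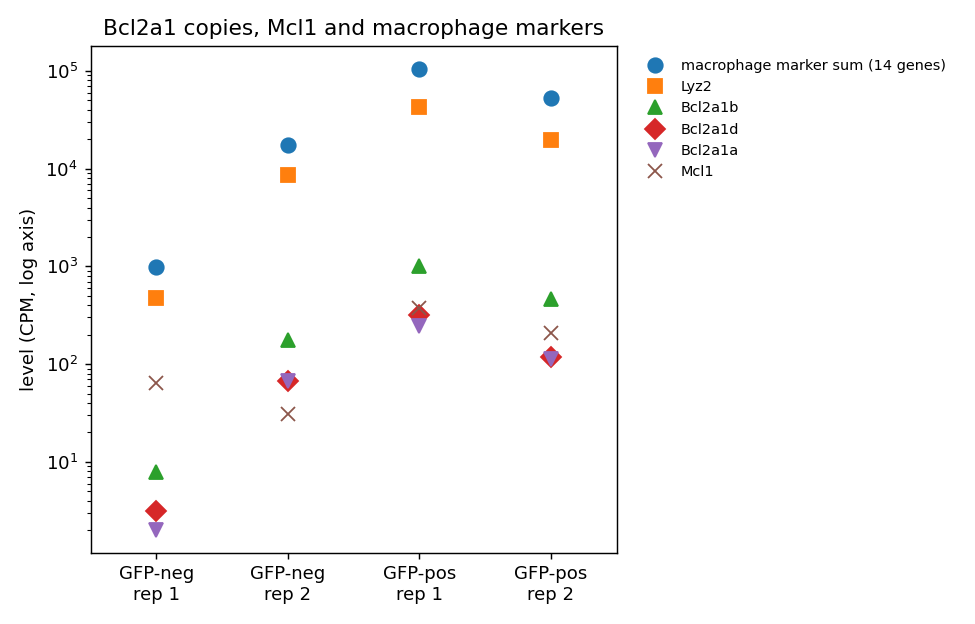
Level in CPM (log axis) of the summed macrophage markers (14 genes), Lyz2, the 3 Bcl2a1 copies and Mcl1 in each of the 4 libraries. The copies, the marker sum and Lyz2 are lowest in GFP-negative replicate 1 and highest in GFP-positive replicate 1, while Mcl1 is lowest in GFP-negative replicate 2, at 30.8 CPM.

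The stretch before the annotated transcript start of Bcl2a1b is shown because it holds the letters GAGGAAGT, the core of sequences bound by PU.1, an ETS factor of myeloid cells. The sequence is from RefSeq's promoter table (GRCm38.p6, chr9:89199023-89199208, plus strand), with the match in capitals.
Bcl2a1b promoter: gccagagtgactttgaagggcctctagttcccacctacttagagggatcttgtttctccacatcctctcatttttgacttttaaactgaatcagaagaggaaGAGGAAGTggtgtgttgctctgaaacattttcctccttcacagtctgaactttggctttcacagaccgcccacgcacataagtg
The letters were searched on both strands after the sequence had been seen, and 3.2% of the 32851 promoters in the table, each 300 bases long, hold them. All 9 members had an entry, with 13 promoters in all, and matches were found in 3 of these: the promoters of Bcl2a1b and Bak1 and 1 of the 2 promoters of Bad. The promoters of Bcl2a1a and Bcl2a1d hold the letters too. A match describes these letters only, and binding was not measured.

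Bcl2l1, which encodes BCL-XL, had 98.5 and 46.95 CPM in GFP-negative libraries, against 0 and 84.0 CPM in GFP-positive libraries. The libraries with counts lay close together, and the only low value was the 0 of GFP-positive replicate 1. The log2 change was 0.79 ± 3.29 (SE, edgeR adjusted p = 1.0), or -0.22 with that library left out. Without GFP-positive replicate 2, which leaves only the library at 0 in its group, the gene was called higher (edgeR adjusted p = 0.011), as were Bad and Bcl2l11, in a fit that called 45.2% of all genes. A count of 0 in GFP-positive replicate 1 allows up to 0.080 CPM, for counting error only. Bcl2l1 lies on chromosome 2 (mm10) from 152780668 to 152831728.

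Bcl2 itself was scarce throughout: it had 3.76 and 2.61 CPM in GFP-negative and 0.053 and 2.90 CPM in GFP-positive libraries. The lowest of these rests on 2 counts, and the other 3 libraries had 174 to 427. Its log2 change was 1.11 ± 4.20 (SE, edgeR adjusted p = 1.0), or 0.13 with that lowest library left out. Bcl2 lies on the minus strand of chromosome 1 (mm10) from 106538178 to 106714274, where the antisense gene D630008O14Rik shares 558 exon bases with it and is not among the symbols of the table. The protocol in the labels names no step that marks strand, so reads of overlapping genes on opposite strands cannot be told apart.

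Among the effectors, Bax was abundant in all 4 libraries and Bak1 was nearly absent. Bax had 90.8 and 427 CPM in GFP-negative and 231 and 310 CPM in GFP-positive libraries. The 2 GFP-negative libraries lay on either side of the GFP-positive pair, and the log2 change was -0.06 ± 1.86 (SE, edgeR adjusted p = 1.0), with a sign that turned under other scalings (0.25 under library totals). Bax lies on chromosome 7 (mm10) from 45461697 to 45466898 and shares 192 exon bases with Gm45808 on its own strand. Bak1 had 0.159 and 0 CPM in GFP-negative and 0 and 0.863 CPM in GFP-positive libraries, from 18 and 0 counts in GFP-negative and 0 and 55 counts in GFP-positive libraries. These are too few to measure a change, and the fitted -2.41 ± 2.75 (SE, edgeR adjusted p = 1.0) depends on single libraries. On chromosome 17 (mm10), where Bak1 spans 27019810 to 27029009, Ggnbp1 on the opposite strand shares 614 exon bases with Bak1 and is not among the symbols of the table. Of the permeabilising relatives, Bok, whose product can act without BAX and BAK, had 58.8 and 162 CPM in GFP-negative and 0.133 and 72.4 CPM in GFP-positive libraries and was named after its values were seen.

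Among the BH3-only genes, Bid, whose product links death receptors to mitochondria, had even levels in the GFP-negative libraries and uneven ones in the GFP-positive libraries. It had 63.1 and 53.9 CPM in GFP-negative and 300 and 36.0 CPM in GFP-positive libraries, so the GFP-negative pair lay between the 2 GFP-positive libraries. The log2 change was -1.52 ± 2.57 (SE, edgeR adjusted p = 1.0). Leaving out GFP-positive replicate 1 gave 0.69, so that library sets the sign. On chromosome 6 (mm10), where Bid spans 120891930 to 120916853, Bcl2l13 on the opposite strand shares 628 exon bases with Bid and had 7392 and 10 counts in GFP-negative and 0 and 541 counts in GFP-positive libraries. Bid was highest in GFP-positive replicate 1, where Bcl2l13 was at 0, as were 64.4% of the genes tested. The part of shared reads in the values of Bid was not tested.

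Bad, whose protein binds BCL-2 and BCL-XL when growth factor signals are withdrawn, had 15.7 and 187 CPM in GFP-negative and 0 and 184 CPM in GFP-positive libraries. Both replicates numbered 2 were high and both numbered 1 were low, and the log2 change was 0.14 ± 2.66 (SE, edgeR adjusted p = 1.0). It was -0.86 without GFP-positive replicate 1 and -2.57 without GFP-negative replicate 2. On chromosome 19 (mm10), where Bad spans 6941861 to 6951899, Gpr137 on the opposite strand shares 524 exon bases with Bad and had at most 1000 counts, in GFP-positive replicate 2, where Bad had 11739. Bcl2l11, which encodes BIM, had 15.2 and 4.06 CPM in GFP-negative and 0 and 14 CPM in GFP-positive libraries. The groups overlapped, with GFP-negative replicate 1 and GFP-positive replicate 2 nearly level, and the log2 change was 0.47 ± 4.45 (SE, edgeR adjusted p = 1.0). It turned to -0.54 once GFP-positive replicate 1 was left out. Bcl2l11 lies on chromosome 2 (mm10) from 128126038 to 128162547.

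**Figure D3:**
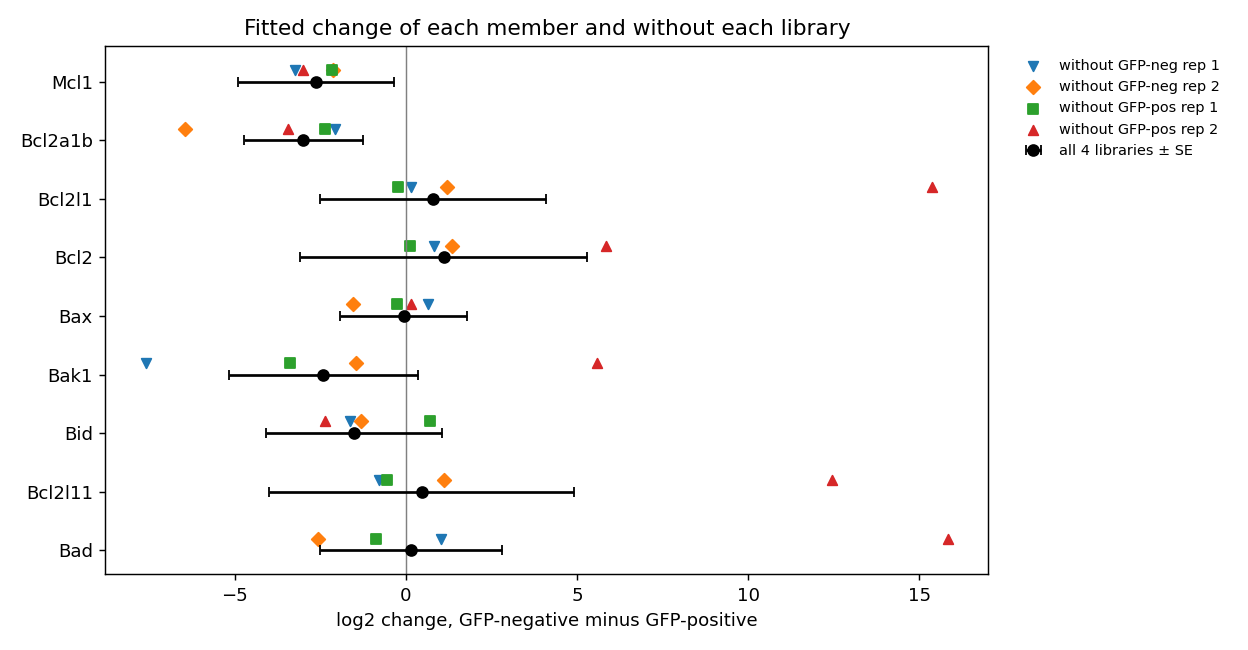
Fitted log2 change (GFP-negative minus GFP-positive) of each member with its SE from all 4 libraries (black), and the same change when 1 library is left out (coloured symbols, no error shown). Mcl1 and Bcl2a1b stay below 0 in all 4 of these refits, and the red symbols far to the right are members at or near 0 in GFP-positive replicate 1, whose fitted size depends on the prior count.

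Levels of different genes were compared on FPKM, fragments per kilobase of gene scaled to library size, as the authors deposited them. In GFP-negative libraries Bax led the family with a mean of 151 ± 104 FPKM (SD, n = 2), followed by Bcl2a1b at 96.2 ± 117, Bad at 34.6 ± 37.2, Bcl2l1 at 18.8 ± 14.5, Bid at 18.3 ± 8.06 and Mcl1 at 16.4 ± 12.6 FPKM. Among these 6, neighbours in the order had overlapping ranges. Bcl2l11 (1.49 ± 1.52 FPKM), Bcl2 (0.396 ± 0.224 FPKM) and Bak1 (0.043 ± 0.060 FPKM) came last, with a gap between the ranges of Mcl1 and Bcl2l11 and of Bcl2 and Bak1. In GFP-positive libraries Bcl2a1b led with 627 ± 229 FPKM, then came Bax with 127 ± 45.9 and Mcl1 with 60.4 ± 15.3 FPKM, and the ranges of these 3 did not overlap. Below them Bid (31.4 ± 32.7 FPKM), Bad (29.2 ± 41.3 FPKM), Bcl2l1 (7.42 ± 10.5 FPKM), Bcl2l11 (0.703 ± 0.994 FPKM), Bak1 (0.143 ± 0.202 FPKM) and Bcl2 (0.13 ± 0.178 FPKM) overlapped their neighbours in the order.

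Within a library, these levels give the make-up of the family's transcripts. Bcl2a1b took 7.25% and 36.3% of the summed FPKM of the 9 members in GFP-negative libraries, against 78.2% and 61.4% in GFP-positive libraries, and Bax took 43.1% and 45.5% in GFP-negative against 9.37% and 21% in GFP-positive libraries. Mcl1 took 14% and 1.52% in GFP-negative and 7.06% and 6.54% in GFP-positive libraries. Bcl2l1 took 16.1% in GFP-negative replicate 1 and at most 1.96% in the other 3 libraries. The 5 pro-death genes together came to 1.66 and 1.53 times the FPKM of the 4 pro-survival genes in GFP-negative and 0.173 and 0.429 times in GFP-positive libraries. That gap rests on Bcl2a1b: with it left out, the same ratio was 2.06 and 18.4 in GFP-negative and 2.09 and 3.52 in GFP-positive libraries, and replicate 1 of each group came out alike. In GFP-positive replicate 1, the pro-death genes Bad, Bcl2l11 and Bak1 and the pro-survival gene Bcl2l1 were at 0. Its sums therefore lack them, while Bad alone had 58.35 FPKM in GFP-positive replicate 2. No test was made of these ratios, which are sums of transcripts and not of proteins.

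**Figure D4:**
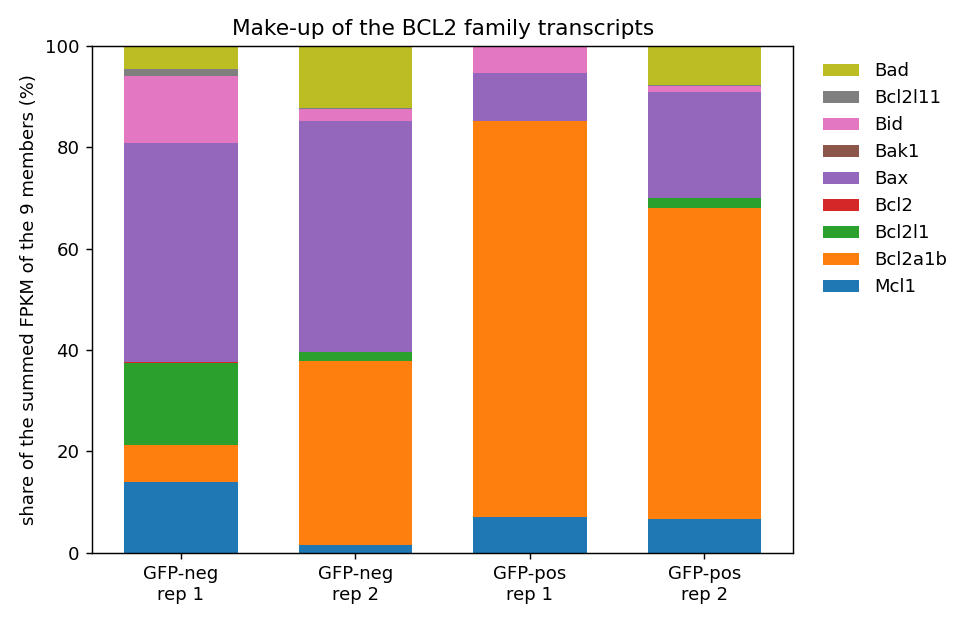
Share (%) of the summed FPKM of the 9 members taken by each of them, one bar per library, with the 2 GFP-negative libraries on the left. Bcl2a1b takes 78.2% and 61.4% in the GFP-positive libraries, and Bax 43.1% and 45.5% in the GFP-negative libraries.

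The genes nearest in pattern, by the Euclidean distance of centred log2(CPM + 1) values over the 4 libraries among 12577 genes with 5 CPM or more in some library, were named for each member. For Mcl1 they were Ucp2, a mitochondrial carrier (distance 0.116), with 195 and 96.4 CPM in GFP-negative and 1195 and 702 CPM in GFP-positive libraries, and Dpm1 (0.16). For Bcl2a1b they were Lyz2 (0.284) and Ang (0.325), and for Bcl2l1 the polyamine enzyme gene Odc1 (0.058) and Gnptg (0.119). Bax was nearest to Cox5b-ps (0.133) and Cox14 (0.136), a respiratory chain assembly factor, with 57.8 and 243 CPM in GFP-negative and 142 and 179 CPM in GFP-positive libraries. Bad was nearest to Igtp (0.254) and Psmb10 (0.49), genes known to respond to interferon, and both were at 0 in GFP-positive replicate 1. Bid was nearest to Desi2 (0.084) and mt-Nd6 (0.192), Bcl2l11 to Tab1 (0.087) and Grtp1 (0.143), Bcl2 to Bfar (0.103) and Ripk2 (0.175), and Bak1 to Ccnl1 (0.204) and Rnf187 (0.247). The 1 CPM added before the log flattens members near 0, so the neighbours of Bak1 and Bcl2 say little. Ccnl1, for example, had 134.5 and 107.2 CPM in GFP-negative and 125.3 and 195.4 CPM in GFP-positive libraries. With 4 values per gene, such neighbours are a description and carry no test.

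Of the other BCL2 relatives, 11 of the 15 listed were in the table and tested, and edgeR called 0 in either direction, with 0 at an unadjusted p under 0.05. Their median log2 change was 0.59, beside 0.91 for all genes, with 6 above and 5 below 0, and 6 were at 0 in GFP-positive replicate 1. Bcl2l14 had the smallest p of them, with 25.0 and 4.48 CPM in GFP-negative libraries and 0 counts in both GFP-positive libraries. For counting error only, its group mean was at least 232-fold higher, with each GFP-positive library set to a floor of 3 counts and the floors averaged as CPM (edgeR adjusted p = 1.0). The bound does not cover RNA lost before amplification, and 64.4% of the genes tested were at 0 in GFP-positive replicate 1. DESeq2's Wald test called 1 of the 11, Bcl2l14 (adjusted p = 0.048), and 0.279% of all genes to which it gave an adjusted p. The limma-voom test called 0 of the 11. Bcl2a1d, given above, came next. The BH3-only genes Pmaip1 (NOXA) and Bbc3 (PUMA), textbook targets of p53, were named after their values were seen. Pmaip1 had 25.2 and 24.0 CPM in GFP-negative and 0.107 and 83.4 CPM in GFP-positive libraries. Bbc3 had 11.7 and 5.30 CPM in GFP-negative and 0.133 and 21.8 CPM in GFP-positive libraries. In both genes the GFP-negative pair lay between the 2 GFP-positive libraries.

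Downstream of BAX and BAK, all 13 listed genes of the mitochondrial death pathway were tested and edgeR, DESeq2 and limma-voom each called 0, with 0 at an unadjusted p under 0.05 in edgeR. Their median log2 change was 1.04, beside 0.91 for all genes, with 9 above and 4 below 0. Of them, 7 were at 0 in GFP-positive replicate 1, as were 64.4% of the genes tested. Over all genes tested, edgeR called 0.0982%, 3.1% had an unadjusted p under 0.05 and 31.9% had a change below 0. Cycs, which encodes cytochrome c, had 527 and 2553 CPM in GFP-negative and 364 and 638 CPM in GFP-positive libraries (log2 change 1.62 ± 1.19, SE, edgeR adjusted p = 1.0). The groups overlapped through GFP-negative replicate 1. Casp9, the initiator caspase of this pathway, had 28.2 and 0 CPM in GFP-negative and 0 and 0.926 CPM in GFP-positive libraries, so 1 library held nearly all of its counts.

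The inhibitor of apoptosis genes, of which only some encode proteins that block caspases, had 8 of 10 members in the table. Of these, edgeR, DESeq2 and limma-voom each called 0, with 0 at an unadjusted edgeR p under 0.05. Their median log2 change was -1.33, beside 0.91 for all genes, with 2 above and 6 below 0. Of them, 4 were at 0 in GFP-positive replicate 1, as were 64.4% of the genes tested. By edgeR, 0.0982% of all genes tested were called, 3.1% had an unadjusted p under 0.05 and 31.9% had a change below 0. Birc3, the cIAP2 gene, had 4.04 and 4.28 CPM in GFP-negative and 184 and 18.6 CPM in GFP-positive libraries. Its groups did not overlap, and 6.63% of all genes tested were likewise lower without overlap. The log2 change was -4.60 ± 3.92 (SE, edgeR adjusted p = 1.0). Leaving out GFP-positive replicate 1 gave -2.17. Naip2, an inflammasome sensor, had 0.405 and 0 CPM in GFP-negative and 0 and 6.10 CPM in GFP-positive libraries.

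The death receptor pathway had 7 of 10 members in the table, with 0 called by edgeR, DESeq2 or limma-voom and 0 at an unadjusted edgeR p under 0.05. Their median log2 change was -0.63, beside 0.91 for all genes, with 2 above and 5 below 0. Of them, 4 were at 0 in GFP-positive replicate 1, as were 64.4% of the genes tested. Among all genes tested, edgeR called 0.0982%, 3.1% had an unadjusted p under 0.05 and 31.9% had a change below 0. Tnfrsf1a, the main TNF receptor gene, had 43.8 and 7.01 CPM in GFP-negative and 691 and 66.7 CPM in GFP-positive libraries, and Fadd, a death receptor adaptor gene, had 7.70 and 12.0 CPM in GFP-negative and 206 and 28.4 CPM in GFP-positive libraries. In both genes the groups did not overlap, as in the 6.63% of all genes tested that were lower without overlap. GFP-positive replicate 1 was far above the rest in both. The log2 changes were -3.90 ± 2.26 for Tnfrsf1a and -3.58 ± 3.48 for Fadd (SE, edgeR adjusted p = 1.0 for both). Leaving out GFP-positive replicate 1 gave -1.40 for Tnfrsf1a and -1.53 for Fadd.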

How the data were processed

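The authors deposited 1 table of whole-number counts per gene and library, per the file headers, beside FPKM values that the authors scaled by gene length and library total. Tools named in the submitters' processing notes, with no roles, were cutadapt 1.9, HISAT2 2.2.1, StringTie 2.1.6, DESeq2 and edgeR, with the build mm10. The program that counted, and its annotation, is not given in the sources used here. Per the labels' protocols, cDNA was made from very little RNA by oligo(dT) priming and template switching and amplified by PCR, with no molecular identifiers, so counting limits understate the error. Deposited FPKM and counts agreed within 1% up to gene length and library factors for 1958 of 1958 genes with at least 1000 counts in all 4 libraries.

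The counts as deposited were tested with edgeR 4.0.16 (R 4.3.3). The function filterByExpr (minimum count 10) kept 16301 genes, TMM factors were 1.54 and 0.956 for GFP-negative and 0.722 and 0.944 for GFP-positive libraries, and glmQLFit and glmQLFTest compared the groups with Benjamini-Hochberg adjustment over all genes at 0.05. Standard errors are the absolute change over the root of F. Alternatives used DESeq2 1.42.0, limma 3.58.1, other scalings and filters, FPKM with pseudocounts of 0.1, 1 and 5, a replicate block and each library left out. Scripts were run on simulated counts with far less spread between libraries than these data. That run checks the code, and it does not show how well changes are found here.

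Members and lists were chosen with earlier results of these data known. Named were all members, in each other list the called genes or the 2 with the smallest p, the 2 genes nearest each member in pattern, and exceptions marked in the text. Positions came from GENCODE M21 (mm10).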

Additional observations from a re-analysis of the deposited data

How the results depend on the processing

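The count of members called was 0 under all scalings, filters and tests run, and 0 to 3 when each library was left out; the 3 (Bcl2l1, Bcl2l11 and Bad) came without GFP-positive replicate 2. All genes called numbered 16, against 0 under upper quartile scaling (edgeR, 1150 at an unadjusted p under 0.05), 42 by DESeq2's Wald test, 4 by limma-voom, 0 by limma on FPKM (log2 scale, pseudocounts 1, 0.1 and 5) (408, 273 and 506 at an unadjusted p under 0.05), 5 among genes with counts in all 4 libraries, and 1 to 7601 with each library left out: 1 without GFP-positive replicate 1, 7601 without GFP-positive replicate 2, 23 without GFP-negative replicate 1 and 59 without GFP-negative replicate 2. Upper quartile scaling gave GFP-positive replicate 1 a factor of 0.0193, its upper-quartile count being 10, and factors of 2.87 to 5.61 to the other libraries.

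Of 140 refitted log2 changes of members, 123 kept their direction and side of the threshold 14 turned, in 7 members, and 3 passed the threshold. Mcl1 and Bcl2a1b kept their direction in every refit, but not their size: upper quartile scaling gave -9.00 and -9.27, and -8.31 for Bid, -5.71 for Bax and -3.12 for Bak1. Bcl2 turned to -0.49 under upper quartile scaling, and Bax to 0.25 under library totals and 0.11 under limma on FPKM with each pseudocount. With each library left out, Bcl2 ranged from 0.13 to 5.86, Bcl2l1 from -0.22 to 15.36, Bax from -1.53 to 0.66, Bak1 from -7.60 to 5.58, Bcl2l11 from -0.78 to 12.45, Bid from -2.36 to 0.69 and Bad from -2.57 to 15.84. The cause was not tested. With each library left out, list medians ranged from -1.45 to 5.58 for the 9 members, -1.05 to 9.67 for other relatives, 0.16 to 10.3 for the mitochondrial pathway, -3.28 to 5.40 for inhibitors of apoptosis and -1.40 to 7.99 for death receptors, while the median of all genes ranged from 0.29 to 9.95. Upper quartile scaling gave medians of -3.12 for the 9 members, -3.52 for inhibitors of apoptosis and -3.34 for death receptors. Genes with counts in all 4 libraries gave -1.44 for members and -3.52 for death receptors. These 2 medians are of fewer genes than the full lists: 5 members, and only Tnfrsf1a, Fadd and Cflar among death receptor genes. The median of all genes was 1.12 under DESeq2 size factors, 0.43 under upper quartile scaling and 1.33 under library totals, against 0.91 under TMM.

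The replicate numbers share no stated animal or day, and the differences between replicates correlated at 0.03 across genes between the groups. A fit with the replicate block called 21 genes, 12 of them among the 16, and 0 of 9 members, with changes of 6.13 for Bcl2l1, 5.18 for Bad, 4.63 for Bcl2l11, 2.92 for Bcl2 and -4.19 for Bcl2a1b. The limits are 2 libraries a group, a library with counts for 6063 genes and amplified cDNA.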
